A study of Mus musculus with 6 samples.

Results

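The genes described here are 10 inhibitors grouped as feedback on the extracellular signal-regulated kinase (ERK) pathway, although *Dusp10* prefers the kinases JNK and p38. They are 6 dual-specificity phosphatases (*Dusp1*, *Dusp2*, *Dusp4*, *Dusp5*, *Dusp6* and *Dusp10*) and 4 genes of the Sprouty family (*Spry1*, *Spry2*, *Spred1* and *Spred2*). They were taken by symbol from a table of 54525 genes, and all 10 were among the 13605 genes with enough counts to be tested. RNA was sequenced from mouse CD4+ T cells of 2 genotypes, wild type (WT) and a conditional knockout of *Abat* (Abat cKO), with 3 samples of each. *Abat* encodes the mitochondrial enzyme that breaks down the neurotransmitter GABA. Naive CD4+ T cells had been taken from lymph nodes and spleen of C57BL/6N mice aged 6 to 8 weeks and activated for 36 h on plate-bound antibodies to CD3 and CD28 with IL-2, with no cytokine added to direct differentiation (TH0 cells). Both genotypes received this treatment. In Abat cKO mice a floxed *Abat* allele is removed by Cre driven from the *Cd4* promoter, which is active in developing T cells of the CD4 and CD8 lineages, so the gene is lost before the cells are isolated. The genotypes were activated and harvested separately, and genotype and culture therefore cannot be told apart. The study had crossed the *Abat* line with a strain carrying the recombinase Flippase and then with the *Cd4*-Cre strain. Whether WT mice were littermates or carried Cre is not stated, so loss of *Abat* cannot be told apart from Cre or mouse line.

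The libraries held 19566016 to 24396746 counts over genes. *Abat* itself had 5, 1 and 0 counts in WT and 7, 3 and 2 in Abat cKO, too few to check the genotype labels, on which every direction given here rests. In a source sheet of the study, of which only a part was read, most genes have the same values under the same genotype as in the deposited counts, *Dusp1*, *Dusp2*, *Dusp5*, *Dusp6* and *Spry1* among them, but a few genes have the values of the genotypes exchanged. Of the genes named here and found in that part, this was so for *Mapk12* alone, and which version holds could not be settled. On the second principal component, which held 16.5% of the variance, WT replicate 3 and Abat cKO replicate 1 stood apart from the other samples of their genotype. Of 8 CD4 T cell markers, all were measured. Their summed level was 3240 to 3306 CPM (counts scaled to the size of the library) in WT and 2862 to 2957 CPM in Abat cKO. Of the 8, 5 were lower and 0 were higher at an adjusted p under 0.05, against 13.4% and 18.1% of all genes tested. The summed level of 9 B cell markers was 239 to 262 CPM in WT and 99.5 to 103 CPM in Abat cKO. Most of this was *Ighm*, and the other 8 markers summed to 6.10 to 24.1 CPM in WT and 4.08 to 4.64 CPM in Abat cKO. Of the 6 B cell markers tested, 5 were lower and 0 were higher. CD8 T cell markers went from 7.50–24.2 to 5.62–6.49 CPM and γδ T cell markers from 2.23–4.12 to 7.56–8.22 CPM, while myeloid markers were at 0.532–0.903 and 0.756–1.58 CPM. Of the markers tested, 2 of 2 CD8 markers were lower and 2 of 2 γδ markers were higher, and no myeloid marker was tested. Natural killer cell markers summed to 6.58–27.1 CPM in WT and 21.3–26.3 CPM in Abat cKO, a sum in which opposite changes met, since 4 of the 6 markers were higher (*Gzma* by 3.66 on the log2 scale, to 13.1 CPM) and 1 was lower (*Eomes*, from 15.2 to 4.27 CPM). The part of these cells in the results on ERK feedback genes was not tested. In bulk RNA of this kind, fewer cells expressing a gene and less RNA per cell cannot be told apart.

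In T cells the antigen receptor activates Ras, which starts a relay of kinases from Raf through MEK to ERK. Active ERK phosphorylates transcription factors and, through them, raises transcription of its own inhibitors. Dual-specificity phosphatases of the MAP kinase phosphatase family remove the phosphates from the threonine and tyrosine that keep ERK, JNK or p38 active, and they differ in which kinase they prefer and in whether they sit in the nucleus or the cytoplasm. Sprouty and Spred proteins act further upstream, between the receptor and Raf. Because many of these inhibitors are themselves transcribed in response to ERK, their mRNAs are often read as a record of recent pathway activity as well as a brake on it.

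The stretches upstream of 4 members are printed. *Dusp6* and *Spry1* had the largest decreases among the well-counted members. *Dusp1* and *Dusp5* hold searched sites of signal-responsive factors within the printed stretches. The sequences are from RefSeq (mouse build GRCm38.p6), read 5′ to 3′ towards the gene, and end at the base before the first annotated exon of the gene in the 250 bases upstream of the RefSeq start. Capitals mark the cAMP response element (CRE, TGACGTCA, bound by CREB and ATF factors), its core (TGACGT) and the CArG box, bound by serum response factor.
Dusp6 (chr10:99262981-99263230, plus strand): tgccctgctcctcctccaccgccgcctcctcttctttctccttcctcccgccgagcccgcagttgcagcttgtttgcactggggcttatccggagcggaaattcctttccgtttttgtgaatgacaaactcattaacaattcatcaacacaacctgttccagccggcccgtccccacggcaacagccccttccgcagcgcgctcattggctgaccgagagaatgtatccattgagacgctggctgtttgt
Spry1 (chr3:37639697-37639946, plus strand): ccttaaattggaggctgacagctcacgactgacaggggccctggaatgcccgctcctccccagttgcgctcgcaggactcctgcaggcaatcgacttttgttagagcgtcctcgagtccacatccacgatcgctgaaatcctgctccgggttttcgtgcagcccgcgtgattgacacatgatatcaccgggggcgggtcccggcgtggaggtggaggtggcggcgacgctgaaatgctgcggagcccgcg
Dusp1 (chr17:26508520-26508722, minus strand): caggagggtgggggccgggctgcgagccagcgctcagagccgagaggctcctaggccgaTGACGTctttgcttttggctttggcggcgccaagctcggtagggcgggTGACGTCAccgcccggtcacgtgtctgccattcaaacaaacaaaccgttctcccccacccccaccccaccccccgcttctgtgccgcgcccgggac
Dusp5 (chr19:53528895-53529108, plus strand): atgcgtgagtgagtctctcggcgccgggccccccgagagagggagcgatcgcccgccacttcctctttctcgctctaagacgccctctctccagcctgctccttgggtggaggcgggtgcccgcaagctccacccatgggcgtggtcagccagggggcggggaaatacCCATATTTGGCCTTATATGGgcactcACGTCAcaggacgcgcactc

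A full CRE lay 143 to 136 bases before the RefSeq start of *Dusp1*, and a separate core lay 191 to 186 bases before it. This stretch lies inside the longer span that the GENCODE annotation gives *Dusp1*, which reaches further upstream than the RefSeq start. Of 32851 promoter windows of the same 250 bases, 1.55% held a full CRE. The core, which any full CRE also contains, was found in 6.47% of the windows and in those of *Dusp1*, *Dusp5* (as ACGTCA, on the opposite strand) and *Spred2*. In *Spred2*, which is not printed, it lay 52 to 47 bases before the start, past the first annotated exon base of the gene. *Dusp5* held a pair of adjacent CArG boxes, 82 to 73 and 72 to 63 bases before its start, a motif found in 1.47% of the windows. The ETS site in the form CCGGAA (12.0% of windows), the AP-1 site (TGANTCA, 6.75%) and a C/EBP-ATF composite site (TGATGNAA, 3.45%) were found in none of the 9 members with a window. Other forms of the ETS site were not searched. The GC box (GGGCGG, 32.7%) was found in 7 of the 9. *Dusp4* was not among the sequences used. All motifs were searched on both strands. A match in these letters is a description of the window, not evidence of binding.

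Most of these inhibitors were lower in Abat cKO. Of the 10 genes, 7 passed the test in that direction at an adjusted p under 0.05 (edgeR's quasi-likelihood test, Benjamini-Hochberg adjustment over all 13605 genes), 0 were higher and 3 did not pass. Over all genes tested, 13.4% were lower and 18.1% were higher, so that 31.5% changed in one direction or the other. The 10 genes and the gene lists further below were chosen with earlier results of these data known. The choice itself can shape such shares, so they are a description and not a test of the group. The median log2 fold change of the 10 genes was -0.42, against 0.0046 over all genes tested, with single values from -1.39 to -0.0033. In 8 of the 10 genes every Abat cKO sample lay below every WT sample, which was so for 20.5% of all genes tested. With any 1 sample left out, 6 to 8 of the 10 were lower, and 8 were lower without both samples that stood apart.

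**Figure D1:**
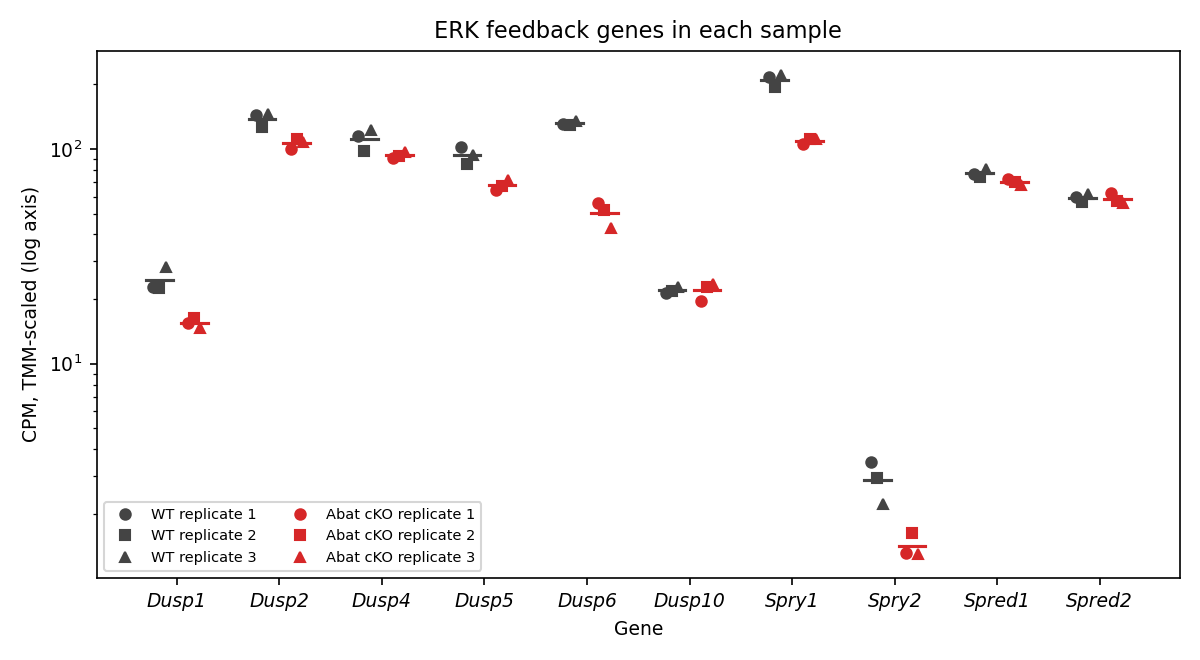
TMM-scaled CPM (log axis) of the 10 ERK feedback genes in each of the 3 WT and 3 Abat cKO samples, with a line at each mean and a symbol for each replicate number. The genotypes are furthest apart for *Dusp6*, *Spry1* and *Spry2* and lie on top of each other for *Dusp10* and *Spred2*.

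*Dusp6* (chromosome 10, 99263231 to 99267489, GRCm38) fell most. It encodes the cytoplasmic phosphatase MKP-3, which binds and inactivates ERK with little activity on JNK or p38. Its level was 130.9, 129.8 and 135.6 CPM in WT replicates 1 to 3 and 56.1, 51.8 and 43.0 CPM in Abat cKO replicates 1 to 3. The WT samples were close together and the Abat cKO samples spread more widely, with replicate 3 lowest and no overlap between genotypes. Abat cKO had 38.1% of the WT level, a log2 fold change of -1.39 (95% interval -1.57 to -1.21, n = 3 per genotype, edgeR adjusted p = 8.81e-07). Among all genes tested, 1.04% had a more negative fold change. A decrease of more than 2-fold that passed the test was found for 1.89% of genes, and *Dusp6* and *Spry2* met it among the 10, *Spry2* not under every alternative (log2 fold changes of -1.19 to -0.87). Under all 15 alternative settings tried, the log2 fold change of *Dusp6* stayed between -1.48 and -1.31 and passed the test.

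The inducible nuclear phosphatases *Dusp1*, *Dusp2*, *Dusp4* and *Dusp5* were all lower, by less than *Dusp6*. These are immediate early genes whose proteins act on MAP kinases that have reached the nucleus. *Dusp1* (MKP-1, chromosome 17, 26505590 to 26562128), which acts on p38 and JNK as well as ERK, was at 22.7, 22.5 and 28.1 CPM in WT and at 15.5, 16.3 and 14.7 CPM in Abat cKO. WT replicate 3 was the highest sample, and the genotypes did not overlap with or without it. The log2 fold change of *Dusp1* was -0.65 (SE 0.0945, adjusted p = 0.000512, edgeR). *Dusp5* (chromosome 19, 53529109 to 53542431), a nuclear phosphatase with a strong preference for ERK, was at 102.6, 85.4 and 93.5 CPM in WT and 64.2, 67.0 and 71.8 CPM in Abat cKO. All 3 Abat cKO samples lay below the lowest WT sample, a log2 fold change of -0.47 (SE 0.0695, adjusted p = 0.000559, edgeR).

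*Dusp2* (chromosome 2, 127336159 to 127338376) was first described in activated T cells as PAC-1. Of the 10 genes it was the most abundant per kilobase of deposited transcript length, a rank that depends on the length used. Its level was 144.0, 126.5 and 144.9 CPM in WT and 99.7, 111.9 and 108.2 CPM in Abat cKO, again without overlap. This was a log2 fold change of -0.38 (SE 0.0634, adjusted p = 0.00128, edgeR). *Dusp4* (MKP-2, chromosome 8, 34807297 to 34819894) was at 115.2, 97.4 and 123.1 CPM in WT and 90.6, 93.1 and 97.2 CPM in Abat cKO. Here the lowest WT sample, replicate 2, and the highest Abat cKO sample, replicate 3, nearly touched. The log2 fold change of *Dusp4* was -0.26 (SE 0.0764, adjusted p = 0.0276, edgeR), and it was called under 11 of the 15 alternatives. Without WT replicate 1, WT replicate 3 or Abat cKO replicate 2 the adjusted p of *Dusp4* was 0.0972, 0.0674 and 0.0875, and with scaling to the spike-in controls it was 0.0558.

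*Dusp10* (MKP-5, chromosome 1, 184013302 to 184075636), which prefers JNK and p38 over ERK, did not pass the test. It was at 21.4, 21.9 and 22.8 CPM in WT and at 19.66, 22.9 and 23.4 CPM in Abat cKO, with the Abat cKO samples on either side of the WT samples. The log2 fold change was -0.0033 with a 95% interval of -0.17 to 0.16 (adjusted p = 0.981, edgeR). Such an interval leaves out a decrease of the size seen for *Dusp1*, *Dusp2*, *Dusp4* or *Dusp5*, although the differences between these genes were not tested.

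*Spry1* fell to about the same share of its WT level as *Spry2*, at far higher abundance. *Spry1* (chromosome 3, 37639947 to 37644598), which is induced by antigen receptor signals and restrains Ras and other branches below the receptor, was at 216.2, 194.1 and 222.0 CPM in WT and at 105.5, 111.0 and 111.0 CPM in Abat cKO. The 3 Abat cKO samples were nearly equal and far below the lowest WT sample. Abat cKO had 51.8% of the WT level, a log2 fold change of -0.95 (95% interval -1.07 to -0.82, adjusted p = 1.04e-06, edgeR). *Spry2* (chromosome 14, 105891947 to 105896819), the close paralogue best known from growth factor signalling, was at 3.48, 2.94 and 2.23 CPM in WT and at 1.31, 1.62 and 1.30 CPM in Abat cKO. These values rest on 46 to 77 counts per WT library and 25 to 35 per Abat cKO library. The groups did not overlap, and the log2 fold change was -1.03 with a wide 95% interval of -1.55 to -0.50 (49.1% of the WT level, adjusted p = 0.0081, edgeR). Both Sprouty genes passed the test under all 15 alternatives, with adjusted p of *Spry2* between 0.000711 and 0.0465.

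Neither Spred gene passed the test. Spred proteins bring the Ras inactivator neurofibromin to the membrane. *Spred1* (chromosome 2, 117121374 to 117182279) was at 76.4, 74.4 and 80.7 CPM in WT and 72.8, 70.2 and 68.1 CPM in Abat cKO. All Abat cKO samples of *Spred1* were below all WT samples, by a log2 fold change of -0.13 (95% interval -0.24 to -0.03) that did not pass the test (adjusted p = 0.0603, edgeR). It passed under 6 of the 15 alternatives, which gave adjusted p of 0.028 to 0.311. *Spred2* (chromosome 11, 19924375 to 20024026) was at 59.8, 56.4 and 61.9 CPM in WT and at 62.4, 57.3 and 56.0 CPM in Abat cKO. The samples of the genotypes were interleaved, and the log2 fold change was -0.02 (95% interval -0.14 to 0.11, adjusted p = 0.844, edgeR).

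**Figure D2:**
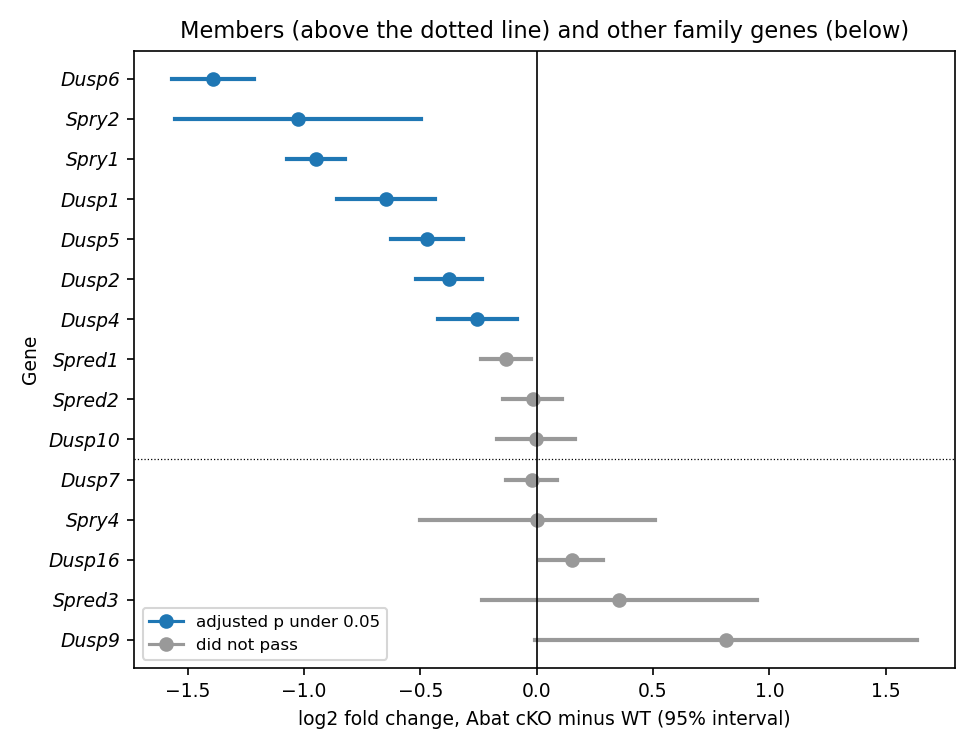
Log2 fold change (Abat cKO minus WT) with its 95% interval from edgeR for the 10 members, above the dotted line, and for the 5 other MAP kinase phosphatase, Sprouty and Spred genes that could be tested, below it. Blue marks an adjusted p under 0.05, which 7 members, 0 of the other genes and 31.5% of all genes tested reached. The median of the other genes was 0.15.

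Of the 7 other MAP kinase phosphatase, Sprouty and Spred genes, 5 had enough counts to be tested. None was called in either direction, against 31.5% of all genes tested. *Dusp7*, a cytoplasmic ERK phosphatase closely related to *Dusp6*, was at 64.4, 63.1 and 58.3 CPM in WT and at 60.4, 61.3 and 61.5 CPM in Abat cKO. Its samples overlapped and its log2 fold change was -0.02 (95% interval -0.13 to 0.09, adjusted p = 0.79, edgeR). *Dusp16*, a JNK and p38 phosphatase, had a log2 fold change of 0.15 (adjusted p = 0.0856, edgeR), with every Abat cKO sample above every WT sample. *Dusp9*, *Spry4* and *Spred3* were at most at 2.74 CPM in each sample, with log2 fold changes of 0.82, 0.0031 and 0.36 and intervals that include 0. *Dusp8* and *Spry3* had at most 6 counts in any library and were not tested.

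Among 14 atypical dual-specificity phosphatases, small enzymes without the MAP kinase docking domain, 9 were tested. Of these, 1 was lower (11.1%, against 13.4% of all genes tested) and 0 were higher (against 18.1%), and their median was -0.03 on the log2 scale. The one that fell was *Dusp22*, known as JKAP, a phosphatase that acts on the proximal receptor kinase LCK in T cells. It was at 13.9, 12.9 and 13.5 CPM in WT and 8.12, 9.41 and 9.83 CPM in Abat cKO, without overlap (log2 fold change -0.56, SE 0.0917, adjusted p = 0.00109, edgeR). The others tested had log2 fold changes of -0.13 for *Dusp12*, -0.06 for *Dusp11*, -0.03 for *Dusp19*, 0.10 for *Dusp28*, 0.20 for *Dusp23*, 0.71 for *Dusp14* and 0.78 for *Dusp3*, and *Styx* was at -0.14. *Dusp14*, which acts on TAB1, an adaptor in T cell receptor signalling, did not pass at an adjusted p of 0.0502, at 1.27 to 1.81 CPM in WT and 2.13 to 3.13 CPM in Abat cKO.

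Levels can be compared between genes only per length, and here CPM per kb of the transcript length in the table was used. In WT, *Dusp2* (85.6 ± 6.40, SD, n = 3) and *Spry1* (76.0 ± 5.30) led. Their ranges over samples overlapped, although *Dusp2* was above *Spry1* within every WT library. This order rests on the deposited lengths, 1617 bases for *Dusp2* and 2773 for *Spry1*. The exons annotated in GENCODE M21 cover 2003 and 2906 bases, and the order depends on which length is used. *Dusp6* (47.2 ± 1.10), *Dusp4* (40.8 ± 4.80) and *Dusp5* (37.9 ± 3.49) followed. The ranges of *Dusp4* and *Dusp5* overlapped, although *Dusp4* was above *Dusp5* within every WT library. Differences between genes were not tested. *Spred2* (13.3 ± 0.613) and *Spred1* (12.8 ± 0.536) were alike in level, *Dusp1* (10.6 ± 1.38) and *Dusp10* (7.89 ± 0.265) came next, and *Spry2* (1.38 ± 0.300) was last. In Abat cKO the order changed at *Dusp6*, which with 18.0 ± 2.40 stood below *Dusp4* (34.2 ± 1.20) and *Dusp5* (27.4 ± 1.55). The order also changed at *Dusp1*, which with 6.71 ± 0.346 had a lower mean than *Dusp10* (7.87 ± 0.724). The ranges of *Dusp1* and *Dusp10* overlapped, although *Dusp1* was below *Dusp10* within every Abat cKO library. Their change of order also depends on the length used. The deposited length of *Dusp1* is 2313 bases and its annotated exons cover 3311, against 2792 and 3042 bases for *Dusp10*.

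**Figure D3:**
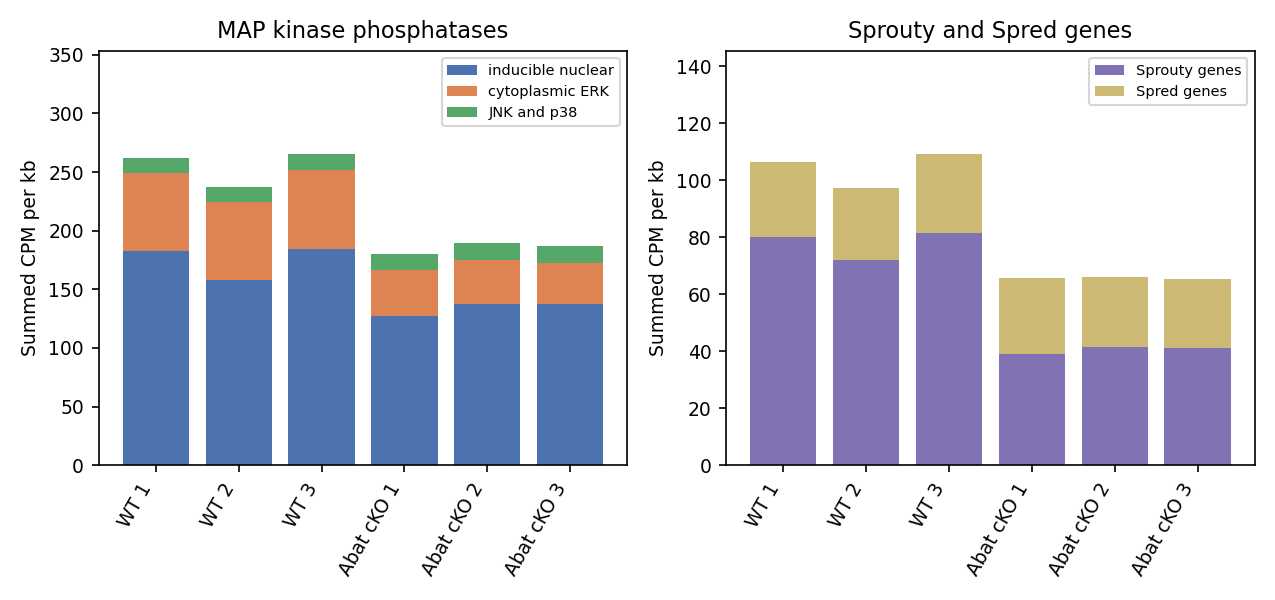
Summed level per length (CPM per kb) in each sample of the 10 MAP kinase phosphatase genes, split by class, and of the 7 Sprouty and Spred genes. The phosphatase sum is 237 to 265 in WT and 180 to 189 in Abat cKO, and the Sprouty and Spred sum is 97.2 to 109 in WT and 65.2 to 66.2 in Abat cKO, with the Spred part nearly constant.

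The same levels were summed by class as a description, with no test. The 4 inducible nuclear phosphatases summed to 175 ± 14.7 CPM per kb in WT and 134 ± 5.87 in Abat cKO. The cytoplasmic ERK phosphatases *Dusp6*, *Dusp7* and *Dusp9* summed to 66.8 ± 0.530 in WT and 37.4 ± 2.21 in Abat cKO, while the JNK and p38 phosphatases *Dusp8*, *Dusp10* and *Dusp16* were at 13.2 ± 0.396 and 13.7 ± 0.478. The makeup of the phosphatase mRNA therefore differed as well as its amount. *Dusp6* was 18.6 ± 0.884% of the sum over all 10 phosphatases in WT and 9.72 ± 1.46% in Abat cKO, and *Dusp7* was 7.59 ± 0.712% and 10.3 ± 0.184%, so that the shares of these related phosphatases, far apart in WT, were close in Abat cKO. Of the Sprouty and Spred sum, *Spry1* was 72.9 ± 0.738% in WT and 59.9 ± 1.74% in Abat cKO, and the Spred genes together were 25.3 ± 0.666% and 38.3 ± 1.76%.

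The genes that carry the signal from the receptor to ERK, or switch it off at Ras, were called in shares near those over all genes. All 28 were tested, of which 6 rose (21.4%, against 18.1% of all genes tested), 3 fell (10.7%, against 13.4%) and 19 missed the threshold, and the median of their log2 fold changes was 0.07. *Rasa1*, a GTPase-activating protein that switches Ras off, fell from 132, 134 and 147 CPM in WT to 68.6, 60.9 and 58.8 CPM in Abat cKO, or by 1.13 on the log2 scale (adjusted p = 9.52e-07, edgeR). *Ksr1*, the scaffold that holds Raf, MEK and ERK together, rose by a log2 fold change of 1.01 (40.5, 34.5 and 35.6 CPM in WT, 74.1, 74.0 and 75.5 CPM in Abat cKO, adjusted p = 1.16e-06). *Nras* and *Mapk3* (ERK1) were higher by log2 fold changes of 0.27 and 0.34, which with scaling to the spike-in controls did not pass (adjusted p = 0.195 and 0.0565). With that scaling 3 genes of this list were higher and 1 was lower.

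ERK-responsive genes moved in both directions. Of 26 listed, 25 were tested, of which 9 fell (36%, against 13.4% of all genes tested) and 6 rose (24%, against 18.1%), and their median was -0.12 on the log2 scale. The 4 with the smallest adjusted p all fell. *Egr3*, a transcription factor induced by the receptor that limits activation, went from 134, 129 and 128 CPM to 57.6, 53.0 and 54.3 CPM, a log2 fold change of -1.24 (adjusted p = 6.58e-08, edgeR). *Phlda1*, induced by receptor signals in T cells, fell by 1.93 on the log2 scale, and the nuclear receptors *Nr4a2* and *Nr4a1*, which rise within hours of receptor signals, fell by 1.17 and 1.07. In the other direction, the AP-1 subunit *Junb* rose by 0.82, from 121–144 CPM in WT to 221–255 CPM in Abat cKO (adjusted p = 1.78e-05, edgeR).

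Other genes of the ERK-responsive list, chosen after their values were seen, show how far it was split. *Fosb* had a log2 fold change of -2.47 (adjusted p = 3.22e-06, edgeR), and *Srf*, the factor that binds the CArG box, one of -0.32 (adjusted p = 0.000448). *Egr2*, by contrast, was higher by 0.49, and the ETS factors *Etv4* and *Etv5*, which with *Dusp6* and *Spry* genes are widely used as readouts of ERK in other tissues, were higher by 0.63 and 0.46. *Etv4* was at 4.65 to 5.18 CPM in WT and 7.05 to 8.37 CPM in Abat cKO, and *Etv5* at 7.45 to 8.13 and 9.99 to 12.2 CPM, both without overlap and in the direction opposite to that of *Dusp6*. *Egr1* and *Myc* had log2 fold changes of 0.16 (adjusted p = 0.176, edgeR) and 0.20 that did not pass. With no filter on low counts both were called higher (adjusted p = 0.0207 and 0.000955), and *Myc* was also called higher by DESeq2 (0.0423), without Abat cKO replicate 1 (0.0468) and without both samples that stood apart (0.00418).

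**Figure D4:**
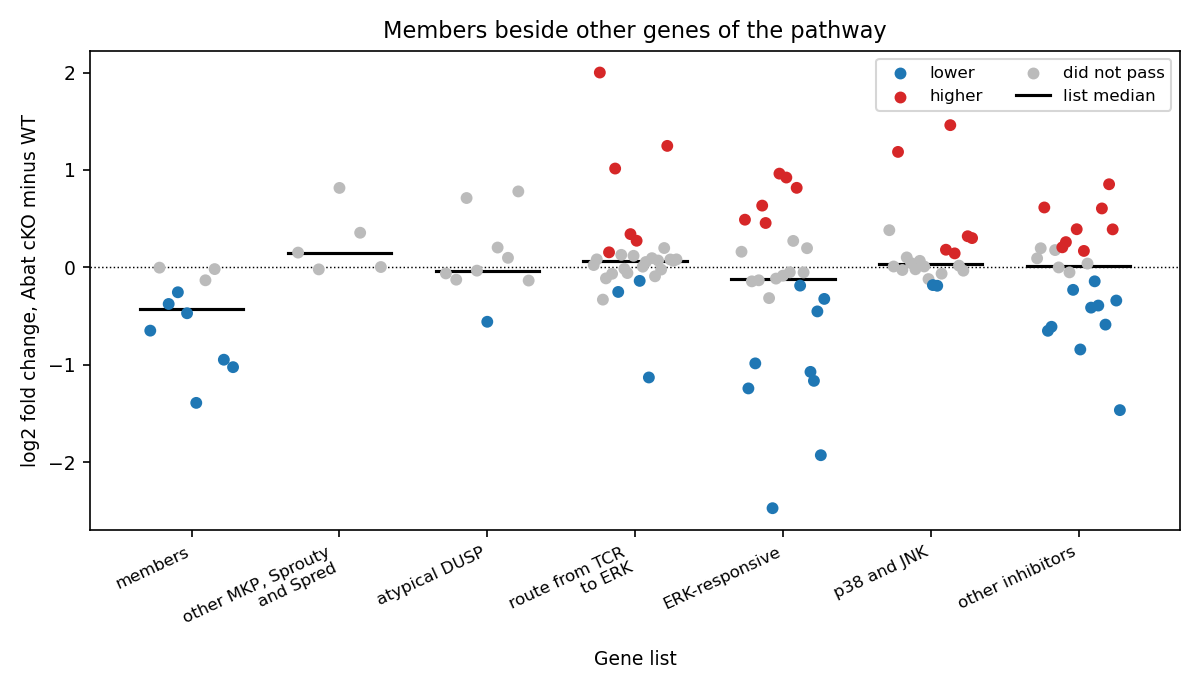
Log2 fold change (Abat cKO minus WT, edgeR) of every tested gene in 7 gene lists, 1 point a gene, blue for lower and red for higher at an adjusted p under 0.05, with a line at the list median. The 10 ERK feedback genes (labelled members) have a median of -0.42 and no gene above 0, while the medians of the other lists lie between -0.12 and 0.15.

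The p38 and JNK cascades, on which *Dusp1* and *Dusp10* also act, had 20 of 21 genes tested, of which 6 rose (30%, against 18.1% of all genes tested) and 2 fell (10%, against 13.4%), and their median was 0.03 on the log2 scale. *Mapk12* (p38γ) rose by 1.46, from 1.35–1.51 CPM in WT to 3.73–4.17 CPM in Abat cKO (adjusted p = 0.000207, edgeR) in the deposited counts, the gene whose genotypes are exchanged in the source sheet, and *Gadd45g*, an activator of the kinase MEKK4, rose by 1.19. *Mapkapk3* and *Mapkapk2*, kinases downstream of p38, were higher by 0.30 and 0.32, and *Map3k5* (ASK1) was lower by a log2 fold change of -0.19. These last 3 calls were lost with scaling to the spike-in controls, under which 2 genes of the list were higher and 0 were lower.

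A further list held other inhibitors of T cell signalling, some of which also act on the route to Ras. Of 25 listed, 24 were tested, of which 10 fell (41.7%, against 13.4% of all genes tested) and 8 rose (33.3%, against 18.1%), and their median was 0.02 on the log2 scale. *Ubash3b*, a phosphatase that acts on the receptor-proximal kinase ZAP-70, fell by 1.47 on the log2 scale, from 111–141 to 44.0–47.2 CPM (adjusted p = 6.61e-07, edgeR). *Ptpn22*, a phosphatase of LCK and ZAP-70, fell by 0.84, and the diacylglycerol kinases *Dgka* and *Dgkz*, which remove the lipid that activates Ras through RASGRP1, fell by 0.65 and 0.61. *Tnfaip3* (A20), an inhibitor of NF-κB, rose by 0.39 (adjusted p = 0.000373, edgeR).

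The profile of each gene over the 6 samples was also compared with that of *Dusp6*, the member with the largest decrease, among 7588 candidates whose log2 CPM averaged 4 or more. The 5 nearest, by the root mean square difference of centred log2 CPM, were *Angptl2* (0.06), *Snn* (0.06), *Homer1* (0.11), *Pou2af1* (0.12) and *Ighm* (0.12). *Homer1* is a scaffold protein best known from synapses, *Pou2af1* a transcriptional coactivator best known in B cells, and *Ighm* the immunoglobulin μ heavy chain, at 233 to 241 CPM in WT and 94.8 to 99.0 CPM in Abat cKO. *Pou2af1* was at 68.9 CPM in WT and 25.5 CPM in Abat cKO on average, while the 8 B cell markers other than *Ighm* summed to at most 24.1 CPM in any sample. No member rose, and the profiles nearest to *Dusp10*, the member closest to 0, were those of *Pef1* (0.01), *Ndufa6*, *Cers2*, *Cbr1* and *Rnf220* (0.04), all with adjusted p of 0.807 or more (edgeR).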

How the data were processed

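The authors deposited 1 table with counts per gene for 6 RNA libraries (3 WT, 3 Abat cKO), the transcript length of each gene in base pairs, normalized values, genotype means and their own fold changes and adjusted p-values. The counts and lengths were used here, and the other columns were not. The study's methods name ribosomal RNA depletion, TopHat2, HTSeq and DESeq2 on GRCm38, while the submitters' processing notes name Trim Galore 0.60, STAR 2.7 and RSEM 1.31. Which of these made the counts, and whether counting used strand, is not given in the sources used here. Without strand, reads of *Dusp5* and an antisense gene that shares 547 exonic bases, of *Spry1* and *Gm42922* (710 bases, 5 to 15 counts) and of *Dusp1* and *Ergic1* (11 bases) cannot be told apart.

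The 92 spike-in controls (0.817 to 1.003% of counts) were left out of library sizes. Counts were scaled by TMM, filtered with filterByExpr (minimum count 10) and tested with edgeR 4.0.16 (glmQLFit and glmQLFTest, R 4.3.3) by genotype, with Benjamini-Hochberg adjustment over 13605 genes and a threshold of 0.05. CPM are TMM-scaled, a pseudocount of 0.5 was added for log2 profiles, and CPM per kb divides CPM by the deposited length. The test was also run on simulated counts. Of 50 genes given a 1.5-fold change 32 were called, and of 50 given a 2-fold change 43 were called. Of 13405 genes given no change, 7 were called. Smaller changes can thus be missed. Replicates of a genotype differed by more than sampling noise, and the study calls them independent biological samples, and its methods describe sex- and age-matched mice of both sexes in each experiment, without tying mice to these libraries, so p-values measure the spread between these samples.

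The 10 genes and the gene lists were chosen with earlier results of these data known. Named were all members, the tested genes of both lists of other family genes, up to 4 genes of smallest adjusted p in each further list with the 1 of smallest adjusted p in the other direction, and the 5 nearest profiles. Further ERK-responsive genes were chosen after their values were seen, as stated beside them. Alternatives were 3 other scalings, DESeq2 1.42.0, 2 other count filters, a replicate block, leaving out each sample or both samples that stood apart, and protein-coding genes alone. Gene positions and overlaps were read from GENCODE M21 on GRCm38.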

Additional observations from a re-analysis of the deposited data

How the results depend on the processing

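Of the log2 fold changes of named genes under the alternatives, 888 kept their side of the threshold, 16 gained a call and 9 lost one. None changed direction with a call. Some changed direction without one, among them *Dusp10* (-0.0632 to 0.0932) and *Spred2* (-0.0659 to 0.0016). Of the counts, 223 stayed within 1.5 times and 17 did not. With scaling to the spike-in controls, 1339 genes were higher and 1185 lower over all genes, 6 of the 10 ERK feedback genes were lower, and the counts became 5 higher for other inhibitors, 2 higher and 0 lower for p38 and JNK, and 3 higher and 1 lower for the route to ERK. The count of atypical phosphatases called higher was 1 with no filter on low counts, with at least 10 counts in every sample and with protein-coding genes alone, through *Dusp14*. It was 2 for those called lower without Abat cKO replicate 1 and without both samples that stood apart. With single samples left out, the p38 and JNK genes called lower ranged from 1 to 2 (1 without WT replicate 1, WT replicate 3, Abat cKO replicate 2 or Abat cKO replicate 3) and the atypical phosphatases called lower from 1 to 2. With a replicate block 7 of the 10 ERK feedback genes, 1416 of all genes and 1 p38 and JNK gene were lower. Same-numbered samples did not deviate together (correlations of -0.279, 0.028 and -0.269), so no pairing by number was seen. The highest correlations lay across numbers, 0.272 for WT replicate 3 with Abat cKO replicate 1 and 0.26 for WT replicate 1 with Abat cKO replicate 3. Whether such samples shared a batch was not tested. With 3 samples per genotype, some of which stood apart, these correlations cannot exclude a pairing. Scalings moved the median of all genes by at most 0.046 (log2). Low counts limit the precision for *Spry2* and for the sparsely counted relatives, among them *Dusp3*, *Dusp9*, *Dusp23*, *Spry4* and *Spred3*.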

Other observations

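Several relatives of the 10 ERK feedback genes were below the level at which a difference could be tested. *Dusp15*, *Dusp21* and *Dusp26* had 0 counts in all 6 libraries, *Dusp13* had 2 counts in 1 Abat cKO library and 0 in the other 5, and *Dusp18* had 4 to 11 counts per library. *Spry3* had 1 count in 1 library of each genotype. *Dusp8*, a JNK phosphatase, had 6, 1 and 3 counts in WT and 1, 2 and 1 in Abat cKO.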
